A study of Mus musculus with 9 samples.

Results

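Kidneys of mice labelled LPS+Tβ4 were compared with kidneys labelled saline, gene by gene, in libraries of poly(A) RNA. LPS is lipopolysaccharide, the outer-membrane glycolipid of Gram-negative bacteria that is used to induce sepsis-like inflammation, and Tβ4 is thymosin β4, a small peptide that binds actin monomers. The series holds 3 groups of 3 libraries, labelled saline, LPS and LPS+Tβ4, and the 9 samples include no group given Tβ4 without LPS. The labels give the tissue and the treatment, and no dose, route, time, strain, sex or age. They do not say that replicates came from separate animals, so p-values measure the spread between these samples, which may be technical. Of 34310 genes in the deposited table, the 15015 with a mean FPKM (fragments per kilobase of transcript and M fragments) of 0.5 or more over the 9 libraries make up the comparison. The question put to each gene was whether kidneys given LPS+Tβ4 stayed changed from saline or lay at the saline level, and the LPS group showed which genes LPS had moved.

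LPS is recognised by TLR4 on immune, endothelial and tubular cells. TLR4 signals through MyD88 to NF-kB and the mitogen-activated protein kinases (MAPK), and through TRIF to type I interferon, whose receptor acts on STAT proteins and IRF9 to switch on antiviral genes. In the septic kidney the proximal tubule, which reabsorbs most of the filtered solute and depends on mitochondrial oxidation, loses transporters and enzymes and gains injury proteins such as KIM-1 and NGAL.

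A level is given here as CPM, the counts of a gene per M counts of its library after TMM scaling, in the order replicate 1, 2 and 3. A change is the log2 difference of LPS+Tβ4 minus saline from edgeR's quasi-likelihood test with Benjamini-Hochberg adjustment over the 15015 genes, with its standard error (SE) and n = 3 libraries a group. A gene is called higher or lower where the adjusted p is under 0.05. It is said to lie within 2-fold of saline where the whole 95% interval of its log2 difference is between -1 and 1, and unresolved where it is neither called nor within 2-fold. LPS+Tβ4 against saline and LPS against saline use the same 3 saline libraries, and LPS+Tβ4 against LPS shares libraries with both, so values set side by side are not independent of each other.

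The libraries held 53 to 62 M counts. They also differed in how much tissue other than kidney parenchyma they carried. Summed CPM of 7 urothelial markers was 2.13, 99 and 90.8 in saline, 79.3, 55.3 and 3.48 in LPS, and 1.44, 1.44 and 108 in LPS+Tβ4. Saline replicate 1, LPS replicate 3 and LPS+Tβ4 replicates 1 and 2 thus had little of it, and the summed level of 8 adipose markers was also lowest in those 4 libraries (36 to 103 CPM, against 189 to 1110 CPM in the other libraries). Between LPS+Tβ4 and saline, edgeR called 0 of the 7 urothelial and 0 of the 8 adipose markers, against 0 and 2 at an unadjusted p under 0.05, and DESeq2 called 0 urothelial and 1 adipose marker. The summed level of liver markers was 814 CPM with saline replicate 1 and 92 to 248 CPM in the other libraries. Beside many of the gene lists below, the median is therefore also given within the urothelium-poor libraries (saline replicate 1 against LPS+Tβ4 replicates 1 and 2) and within the rich ones (saline replicates 2 and 3 against LPS+Tβ4 replicate 3), from mean log2 levels and with no test. These levels are log2 of CPM plus 0.5, which shrinks the differences of low genes. Medians made this way are therefore not on the scale of the edgeR medians. The share of counts from mitochondrially encoded genes was 12.9 to 16.2% in saline, 7.64 to 10.6% in LPS and 7.59 to 9.14% in LPS+Tβ4. In bulk tissue, fewer cells of a type and less RNA per cell cannot be told apart.

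Kidneys given LPS+Tβ4 were far from the saline state in some functions and close to it in others. Of the 15015 genes, 1852 (12.3%) were higher and 1765 (11.8%) were lower than in saline, and the median difference over all genes was -0.003. The whole interval lay past 2-fold for 693 of the higher genes (4.62% of all tested) and 431 of the lower ones (2.87%). It lay within 2-fold of saline for 7017 genes (46.7%), 510 of which were also called. The other 4891 genes (32.6%) were unresolved, more genes than were called, and lacked the precision for a verdict. The share within 2-fold depends on precision, and 4067 of 7029 genes with a mean FPKM of 5 or more lay there. The part of expression level in a list's share above 46.7% was not tested. In LPS against saline, 3144 genes (20.9%) were higher, 3329 (22.2%) were lower and 5517 (36.7%) lay within 2-fold. Between LPS+Tβ4 and LPS, 675 genes (4.5%) were higher and 350 (2.33%) were lower. The filter on the mean bears on these counts, since 420 of the genes called higher had a saline mean under 0.5 FPKM, and 158 of those called lower had an LPS+Tβ4 mean under it.

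**Figure D1:**
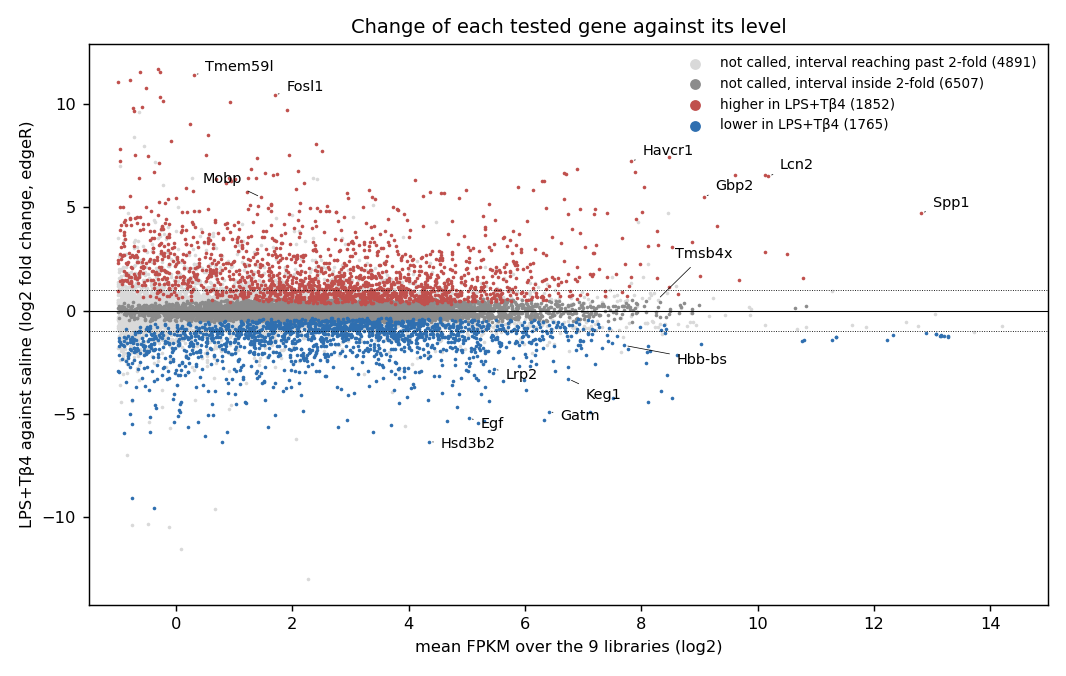
Each point is 1 of the 15015 tested genes, with its mean FPKM over the 9 libraries (log2) on the horizontal axis and its log2 fold change of LPS+Tβ4 against saline on the vertical axis; dotted lines mark 2-fold. Red (1852) and blue (1765) points are genes called higher and lower, dark grey (6507) uncalled genes within 2-fold and light grey (4891) unresolved genes; for a gene at 0 counts in saline, such as Tmem59l and Fosl1, the height depends on the small count added in the fit.

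**Figure D2:**
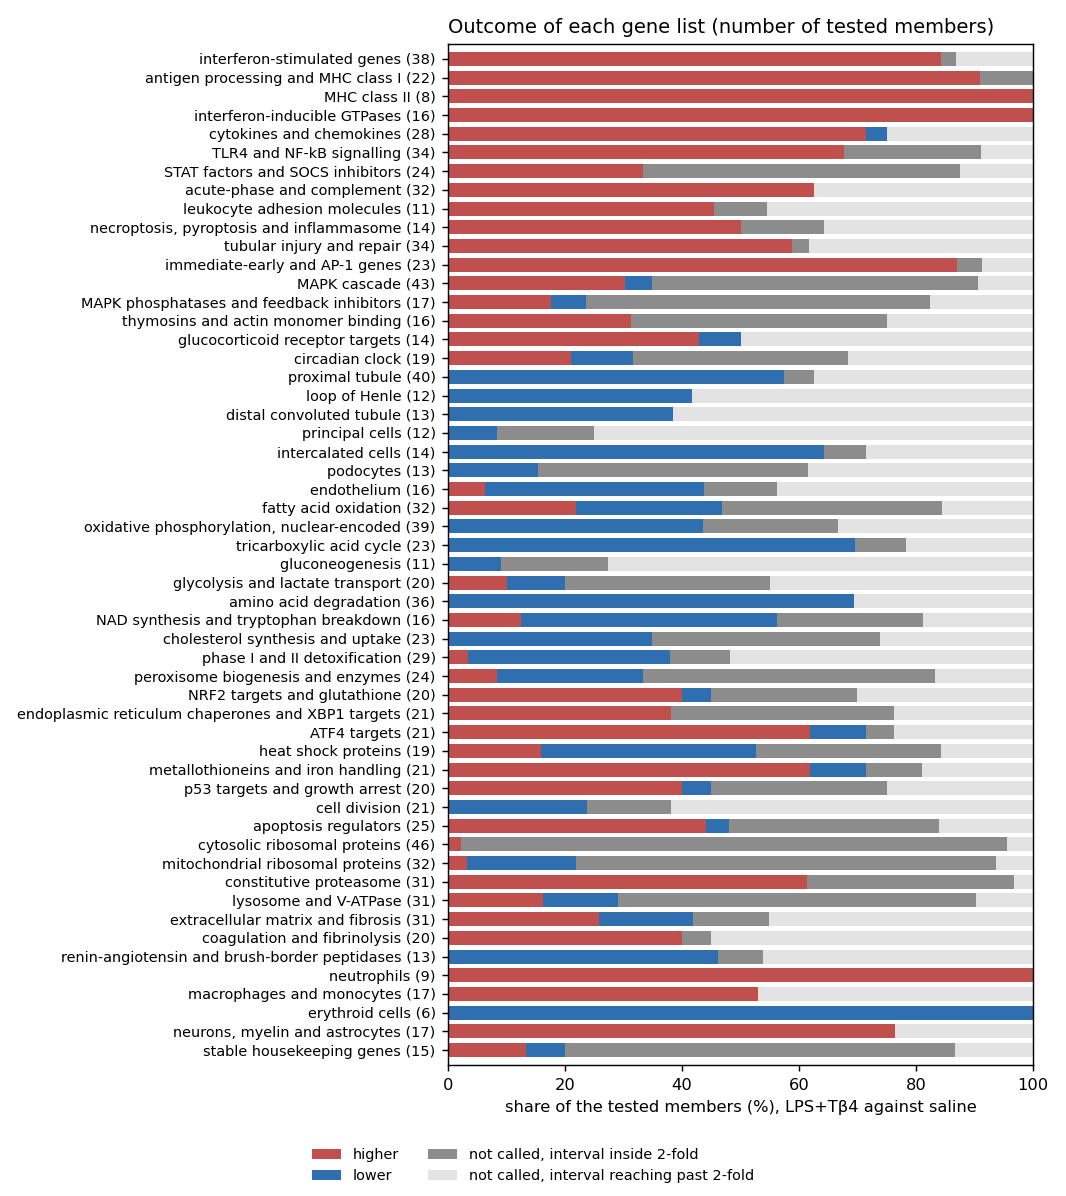
Bars give, for each of 54 gene lists with the number of tested members in parentheses, the share of members (percent, horizontal axis) called higher, called lower, uncalled within 2-fold and unresolved in LPS+Tβ4 against saline. The interferon, MHC, cytokine, acute-phase and tubular injury lists are mostly red, the proximal tubule, intercalated cell, amino acid and tricarboxylic acid cycle lists mostly blue, and the cytosolic ribosome, mitochondrial ribosome, lysosome and MAPK lists mostly dark grey.

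The 15 largest rises were a mixed set that included acute-phase, injury and neutrophil genes. Havcr1, the gene of KIM-1, stood at 4.22, 8.6 and 4.2 CPM with saline, 787, 656 and 1135 CPM with LPS, and 1281, 891 and 387 CPM with LPS+Tβ4. Every LPS+Tβ4 library was far above every saline library, with a log2 difference of 7.23 ± 0.60 (adjusted p = 0.00028), and the LPS and LPS+Tβ4 ranges overlapped. Orm2, an acute-phase plasma protein, went from 3.33, 3.11 and 2.94 CPM with saline to 935, 387 and 319 CPM with LPS+Tβ4 (log2 difference 7.45 ± 0.66). Ngp, which neutrophil precursors make for their granules, read 0, 0.104 and 0.074 CPM with saline and 27, 5.74 and 6.79 CPM with LPS+Tβ4. Also among the 15 largest rises were the acute-phase genes Saa1 (6.71), Saa2 (6.64) and Lrg1 (6.59), the EGF receptor ligand Areg (6.63), the ubiquitin-like modifier Ubd (6.85) and the epithelial genes Sprr2f (8.06) and Lypd8 (6.77), all as log2 differences.

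The head of the list held genes with few or no counts in saline. Fosl1, an AP-1 subunit, had 376, 68 and 117 counts in LPS+Tβ4, at least 179-fold higher than a floor of 3 counts over the saline group. Tmem59l, a gene of neurons, had 303, 392 and 434 counts, at least 360-fold above that floor. Chgb, which encodes a protein of neuroendocrine granules, rose by 8.48 on the log2 scale. The muscle and stress gene Ankrd2 was at least 68.0-fold higher (its call was lost under 1 of 20 alternative settings), and Rbmy, from a multi-copy family whose reads may be split between copies, differed by 6.84 on the log2 scale.

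The 15 largest falls included transporters and enzymes of the tubule. Hsd3b2, a steroid dehydrogenase of the 3-beta type, stood at 313, 188 and 319 CPM with saline and at 1.87, 5.15 and 3.07 CPM with LPS+Tβ4 (-6.34 ± 0.86, adjusted p = 0.0017). Egf, the growth factor made by the distal nephron, dropped from 1109, 1425 and 1227 CPM to 32.7, 47.9 and 21 CPM (-5.21 ± 0.55). Gatm, the first enzyme of creatine synthesis, dropped from 1092, 552 and 1046 CPM to 25.1, 37.6 and 27.7 CPM (-4.89 ± 0.50). In all 3 genes the highest LPS+Tβ4 library lay below the lowest saline library. The list of 15 also held the amino acid transporter Slc7a13 (-5.30), the phosphate transporter Slc34a3 (-5.29), the organic anion transporter Slc22a22 (-5.54), the pyrimidine-degrading enzyme Dpys (-5.03), the methyltransferase Inmt (-4.92) and the near-identical dehydrogenases Hsd3b3 (-5.07) and Hsd3b4 (-5.37), whose reads may be shared with Hsd3b2. The other members, the second to the fifth and the last of the list, were Smcp (-6.05), which is named for a sperm mitochondrial protein, the C-type lectin gene Clec2h (-5.89, lost under 1 alternative), Ldc1 (-5.64), the photoreceptor phosphodiesterase subunit Pde6a (-5.63) and Fancd2os (-4.81, lost under 9 alternatives).

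Promoters of interferon-inducible genes are shown because all 16 tested GTPases of this class rose together and because these genes share a known control element. The motif searched was GAAA, any 2 bases and GAAA again, on either strand, the core of the element bound by IRF9 and by other IRF proteins. It was searched in 300 bases of RefSeq promoter (250 bases before to 50 after each gene's start, GRCm38.p6), and overlapping matches were all marked. The stretches below lie upstream of the start, read 5′ to 3′ on the gene's strand, and capitals mark the match as given or its reverse complement (TTTC, 2 bases, TTTC). Isg15 was chosen after its values were seen, and the other genes were named by rule.
Gbp2 (chr3:142620564-142620653, plus strand): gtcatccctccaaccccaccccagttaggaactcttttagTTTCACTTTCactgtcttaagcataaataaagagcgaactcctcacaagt
Gbp3 (chr3:142559954-142560043, plus strand): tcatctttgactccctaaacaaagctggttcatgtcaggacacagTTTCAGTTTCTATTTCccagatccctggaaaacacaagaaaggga
Igtp (chr11:58199466-58199555, plus strand): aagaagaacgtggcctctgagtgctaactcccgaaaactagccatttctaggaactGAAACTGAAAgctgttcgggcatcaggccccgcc
Irgm2 (chr11:58214873-58214962, plus strand): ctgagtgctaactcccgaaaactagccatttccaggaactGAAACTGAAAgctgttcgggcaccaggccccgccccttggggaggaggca
Isg15 (chr4:156200841-156200930, minus strand): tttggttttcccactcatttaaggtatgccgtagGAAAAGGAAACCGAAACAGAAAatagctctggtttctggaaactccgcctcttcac

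Isg15 holds 3 overlapping matches and Gbp3 holds 2, while Gbp2, Igtp and Irgm2 hold 1 each. The Igtp and Irgm2 stretches share an unbroken run of 29 bases that contains the match. Among interferon-inducible GTPases, 10 of 16 tested genes had a promoter in the table and 9 of those 10 held the motif. It was present in 13 of 28 matched promoters of the interferon-stimulated list (46.4%), 5 of 19 of the antigen processing and MHC class I list (26.3%) and 1 of 5 of the MHC class II list. By comparison, 406 of 10499 promoters of tested genes (3.87%) and 1131 of 32851 promoters in the whole table (3.44%) held it, as did 2 of 24 in the tubular injury list (8.33%) and 1 of 32 in the proximal tubule list (3.12%). A match describes letters in this window and shows no binding.

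Interferon-stimulated genes stayed high in LPS+Tβ4, but below LPS. Of 38 tested members of this list, 32 (84.2%) were higher than saline by edgeR, 1 lay within 2-fold, and no member was lower even at an unadjusted p under 0.05. Of the 38, 3 had a saline mean under 0.5 FPKM and passed the filter through the treated groups, and all 3 were called higher. Of the other 35, 29 were higher. The summed level of the list was 627 to 760 CPM with saline, 4130 to 4980 CPM with LPS and 1900 to 2750 CPM with LPS+Tβ4, so the 3 ranges did not overlap. The median log2 difference from saline was 2.30 in LPS+Tβ4 and 3.52 in LPS, and 19 members were lower in LPS+Tβ4 than in LPS, with none higher. Within urothelium-poor and urothelium-rich libraries the median of LPS+Tβ4 minus saline was 1.86 and 2.70.

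Irf7, the factor that amplifies interferon production, stood at 20.3, 19.7 and 11.4 CPM with saline, 341, 564 and 464 CPM with LPS, and 352, 330 and 337 CPM with LPS+Tβ4. All LPS+Tβ4 libraries lay far above saline and near the lowest LPS library (4.31 ± 0.29, adjusted p = 0.00013). Irf9, the DNA-binding partner of STAT proteins in type I interferon signalling, read 22.2, 20.6 and 18.9 CPM with saline, 97.8, 90.4 and 85.9 CPM with LPS, and 57.9, 58.4 and 71.4 CPM with LPS+Tβ4. For Irf9 the 3 groups did not overlap. It rose by 1.60 ± 0.13 from saline (adjusted p = 0.00025) and differed by -0.55 from LPS (adjusted p = 0.042). Xaf1, an interferon-induced pro-apoptotic protein, was 2.58 above saline and -1.36 from LPS (adjusted p = 0.017), and Nmi, an adaptor of STAT proteins, was 1.83 above saline and -0.98 from LPS (adjusted p = 0.016). The nucleic acid sensor Zbp1 was 4.24 above saline.

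Cmpk2, a mitochondrial nucleotide kinase, was the 1 interferon-stimulated gene whose interval lay within 2-fold of saline. Its level was 16.6, 15.5 and 13.7 CPM with saline, 35.8, 47.4 and 58.5 CPM with LPS, and 17.7, 16 and 18.1 CPM with LPS+Tβ4. The saline and LPS+Tβ4 ranges overlapped and every LPS library was above both. The difference from saline was 0.18 with an interval of -0.25 to 0.60, against 1.63 for LPS minus saline and -1.45 for LPS+Tβ4 minus LPS.

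The interferon-inducible GTPases, which attack vacuoles that hold pathogens, rose without exception. All 16 tested members were higher than saline, each with its whole interval past 2-fold, and all 16 were also higher in LPS. Their summed level was 236 to 259 CPM with saline, 5280 to 15900 CPM with LPS and 3470 to 5590 CPM with LPS+Tβ4. The median log2 difference from saline was 3.72 in LPS+Tβ4 and 4.96 in LPS, and 8 members were lower in LPS+Tβ4 than in LPS. Within the poor and rich libraries the median of LPS+Tβ4 minus saline was 3.73 and 3.46.

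Gbp2, a guanylate-binding protein, stood at 22.6, 32.7 and 25.1 CPM with saline, 1813, 3321 and 4741 CPM with LPS, and 1706, 1196 and 767 CPM with LPS+Tβ4. All LPS+Tβ4 libraries were below all LPS libraries, but the difference of -1.43 did not pass (adjusted p = 0.071), while the rise from saline did (5.51 ± 0.48, adjusted p = 0.00033). Irgm2, an immunity-related GTPase, read 18.8, 21.2 and 25 CPM with saline, 225, 252 and 271 CPM with LPS, and 122, 125 and 134 CPM with LPS+Tβ4. It rose by 2.55 ± 0.15 from saline (adjusted p = 9.6e-05) and differed by -0.97 from LPS (adjusted p = 0.014). Gbp3 (4.92), Tgtp1 (4.67) and Igtp (3.74) rose from saline as well, and Igtp differed by -1.21 from LPS without passing (adjusted p = 0.066).

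The machinery that presents peptides to T cells also stayed high. In the antigen processing and MHC class I list, 20 of 22 tested genes (90.9%) were higher than saline, with a median of 2.35 against 2.84 in LPS (2.33 and 2.50 within the poor and rich libraries), and the list's summed level in LPS+Tβ4 (8230 to 9380 CPM) lay within that in LPS (8120 to 10500 CPM). H2-D1, a class I heavy chain, stood at 183, 209 and 163 CPM with saline, 1956, 2087 and 1596 CPM with LPS, and 2000, 1934 and 1678 CPM with LPS+Tβ4 (3.34 ± 0.21, adjusted p = 0.00013). Its LPS and LPS+Tβ4 ranges overlapped almost entirely. The class I genes H2-K1 (3.17) and H2-T23 (3.16), their shared light chain B2m (2.82) and the immunoproteasome subunit Psmb8 (4.56) rose too, and H2-Q4 rose by 2.84 while differing by -1.02 from LPS (adjusted p = 0.019). Class I genes are close paralogs whose reads may be split among them. The chaperones Pdia3 and Calr were the 2 members that lay within 2-fold of saline.

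MHC class II genes went further in LPS+Tβ4 than in LPS. All 8 tested members were higher than saline in LPS+Tβ4 and 6 were in LPS. The median log2 difference from saline was 2.46 in LPS+Tβ4 and 1.48 in LPS, and 6 of the 8 were higher in LPS+Tβ4 than in LPS. H2-Ab1, a class II beta chain, stood at 44.6, 30.8 and 24.2 CPM with saline, 79.5, 80.1 and 72.6 CPM with LPS, and 293, 316 and 145 CPM with LPS+Tβ4. The 3 groups did not overlap, and the difference from LPS was 1.70 (adjusted p = 0.024) on top of a rise of 2.92 ± 0.33 from saline. Ciita, the coactivator that drives class II transcription, read 3.89, 2.88 and 2.42 CPM with saline, 10.6, 9.46 and 12.1 CPM with LPS, and 26.1, 46.9 and 25 CPM with LPS+Tβ4 (3.41 ± 0.31 from saline, 1.61 from LPS with adjusted p = 0.022). H2-DMa and H2-DMb1, which load class II peptides, rose by 2.95 and 3.10, and the invariant chain Cd74 rose by 1.99.

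Class II genes are made by macrophages, dendritic cells and B cells, so leukocyte markers are given beside them. Of 15 neutrophil markers listed 9 were tested, and 7 of these had a saline mean under 0.5 FPKM and so passed the filter only through the groups where they were high, which makes their count no evidence. Called higher among them were the calprotectin subunits S100a8 (5.81) and S100a9 (5.70) and by Retnlg (5.75). Of 17 tested macrophage and monocyte markers, 9 were higher, with a median of 1.23 in LPS+Tβ4 and 0.22 in LPS. These included the integrin Itgam (4.66), the scavenger receptor Msr1 (4.54), the lysosomal protein Cd68 (2.89), the monocyte antigen Ly6c2 (2.26) and the Fc receptor Fcgr3 (1.57). Of the 17, 4 had a saline mean under 0.5 FPKM and passed the filter through the treated groups, and all 4 were called higher. Of the other 13, 5 were higher. The median of LPS+Tβ4 minus LPS over the 17 was 1.01, with 9 higher at an unadjusted p under 0.05 and 0 by the adjusted p of edgeR. Of 14 T and NK cell markers 4 were high enough to test and 2 were called, and of 9 B cell markers 4 were tested, with medians of 1.47 and -0.48. Both called T and NK cell markers were among 3 with a saline mean under 0.5 FPKM, so their count is no evidence either. The part of infiltrating cells in the class II result was not tested.

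Cytokines and chemokines stayed high. Of 28 tested members, 20 (71.4%) were higher than saline and 1 was lower, with a median of 3.78 in LPS+Tβ4 and 3.96 in LPS. From log2 of CPM plus 0.5, the median of LPS+Tβ4 minus saline was 1.97 over all libraries. It was 1.71 and 3.08 within the poor and rich libraries. Of the 28, 15 had a saline mean under 0.5 FPKM and passed the filter through the treated groups; of the other 13, 9 were higher. Cxcl5, a neutrophil-attracting chemokine, stood at 0.345, 0.434 and 0.388 CPM with saline, 79.7, 70.8 and 65.3 CPM with LPS, and 43.6, 24.1 and 27.2 CPM with LPS+Tβ4. It was thus at an intermediate level, 6.33 ± 0.29 above saline (adjusted p = 8.8e-05) and -1.19 from LPS (adjusted p = 0.024). Il6 read 0.183, 0 and 0.074 CPM with saline, 4.32, 10.1 and 13.6 CPM with LPS, and 12.8, 4.81 and 3.47 CPM with LPS+Tβ4 (6.37 ± 1.03, adjusted p = 0.0036), with LPS and LPS+Tβ4 overlapping. The chemokines Cxcl1 (5.82) and Cxcl13 (5.56), the IL-6 family member Lif (6.16) and the granulocyte growth factor Csf3 (5.45) rose as well.

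Il1b moved the other way from Cxcl5 relative to LPS. It stood at 1.01, 0.573 and 0.592 CPM with saline, 0.984, 1.86 and 2.53 CPM with LPS, and 7.55, 3.63 and 13.3 CPM with LPS+Tβ4, where every library was above every LPS library. The rise from saline was 3.49 ± 0.57 (adjusted p = 0.0038) and the difference from LPS was 2.19 (adjusted p = 0.049), while LPS minus saline was 1.30 and did not pass (adjusted p = 0.081). Tnf rose by 4.10 (adjusted p = 0.014). Its call was lost under 5 of 20 alternative settings, namely the replicate block, each saline library left out, and limma on FPKM values.

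Upstream of the cytokines, 23 of 34 TLR4 and NF-kB signalling genes (67.6%) were higher than saline and 9 lay within 2-fold. The median was 1.18 in LPS+Tβ4 and 1.60 in LPS (1.15 and 1.31 within the poor and rich libraries). Of the 34, 3 had a saline mean under 0.5 FPKM and passed the filter through the treated groups, and all 3 were called higher. Of the other 31, 20 were higher. The NF-kB regulators Bcl3 (4.07), Nfkbiz (2.74) and Relb (2.54), the ubiquitin ligase Birc3 (2.63) and the adaptor Myd88 (1.64) rose. Birc3 alone in this list was lower than in LPS (-1.21, adjusted p = 0.031). The kinases Map3k7 and Irak1 lay within 2-fold, and so did Ikbkb, which was also called at 0.50 (lost under 4 alternatives).

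STAT and SOCS genes split. Of 24, 8 were higher than saline and 13 (54.2%, against 46.7% of all genes) lay within 2-fold. The feedback inhibitor Socs3 rose by 5.45, the IL-6-activated factor Stat3 by 2.48, the oncostatin M receptor Osmr by 2.92 and the interferon-activated factor Stat2 by 1.66. Stat2 differed by -1.40 from LPS (adjusted p = 0.017), where its log2 difference from saline was 3.06. Pias1, Stat6 and Socs4 lay within 2-fold.

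Acute-phase and complement genes showed little difference from LPS. Of 32 tested, 20 were higher than saline and the rest were unresolved, with a median of 3.47 in LPS+Tβ4 and 2.96 in LPS (2.65 and 4.16 within the poor and rich libraries), and 1 member differed between LPS+Tβ4 and LPS. The protease inhibitors Serpina3n (6.28) and Serpina3g (3.91), the copper carrier Cp (3.93) and the complement protease C1ra (3.60) rose. Hepatocytes also make many of these proteins, and the summed level of 9 liver markers was 814, 144 and 135 CPM with saline and 110, 248 and 178 CPM with LPS+Tβ4. Of 11 leukocyte adhesion molecules 5 (45.5%, against 12.3% of all genes) were higher, among them Vcam1 at 2.89 and Icam1 at 2.60. That count was 3 without saline replicate 2, LPS replicate 2 or LPS+Tβ4 replicate 1 or 2. Relative to LPS these endothelial ligands differed in opposite directions, Vcam1 by 1.21 (adjusted p = 0.033) and Icam1 by -1.04 (adjusted p = 0.021). Of 14 necroptosis, pyroptosis and inflammasome genes 7 (50.0%, against 12.3% of all genes) were higher, including the membrane-breaking effector Mlkl (3.89) and the LPS-sensing caspase Casp4 (3.03), while Ripk1 and Gsdme lay within 2-fold. Of the 14, 4 had a saline mean under 0.5 FPKM and passed the filter through the treated groups, and all 4 were called higher. Of the other 10, 3 were higher. In the coagulation list 8 of 20 (40.0%, against 12.3% of all genes) were higher. They were led by the fibrinogen chains Fga (6.56), Fgg (6.55) and Fgb (5.98) and by the urokinase receptor Plaur (2.66). Thbd, the thrombin receptor of endothelium, lay within 2-fold (0.32).

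Tubular injury genes remained high. Of 34 tested, 20 (58.8%) were higher than saline and 1 lay within 2-fold, with a median of 1.95 in LPS+Tβ4 and 2.23 in LPS (1.80 and 2.02 within the poor and rich libraries). Of the 34, 3 had a saline mean under 0.5 FPKM and passed the filter through the treated groups, and all 3 were called higher. Of the other 31, 17 were higher. Lcn2, which encodes NGAL, stood at 36.6, 39.3 and 34.6 CPM with saline, 9090, 6436 and 3277 CPM with LPS, and 3139, 1870 and 4966 CPM with LPS+Tβ4 (6.50 ± 0.56, adjusted p = 0.00031). Its LPS and LPS+Tβ4 ranges overlapped. Spp1, the matricellular protein osteopontin, read 1034, 886 and 929 CPM with saline, 15092, 8859 and 13620 CPM with LPS, and 29034, 28754 and 16777 CPM with LPS+Tβ4, where every library was above every LPS library. It rose by 4.71 ± 0.42 from saline (adjusted p = 0.00035), and its difference from LPS of 0.99 did not pass (adjusted p = 0.13). Sox9, a factor of tubular repair, was 5.69 above saline. Hbegf, an EGF receptor ligand, was the member within 2-fold (-0.01, interval -0.64 to 0.62).

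**Figure D3:**
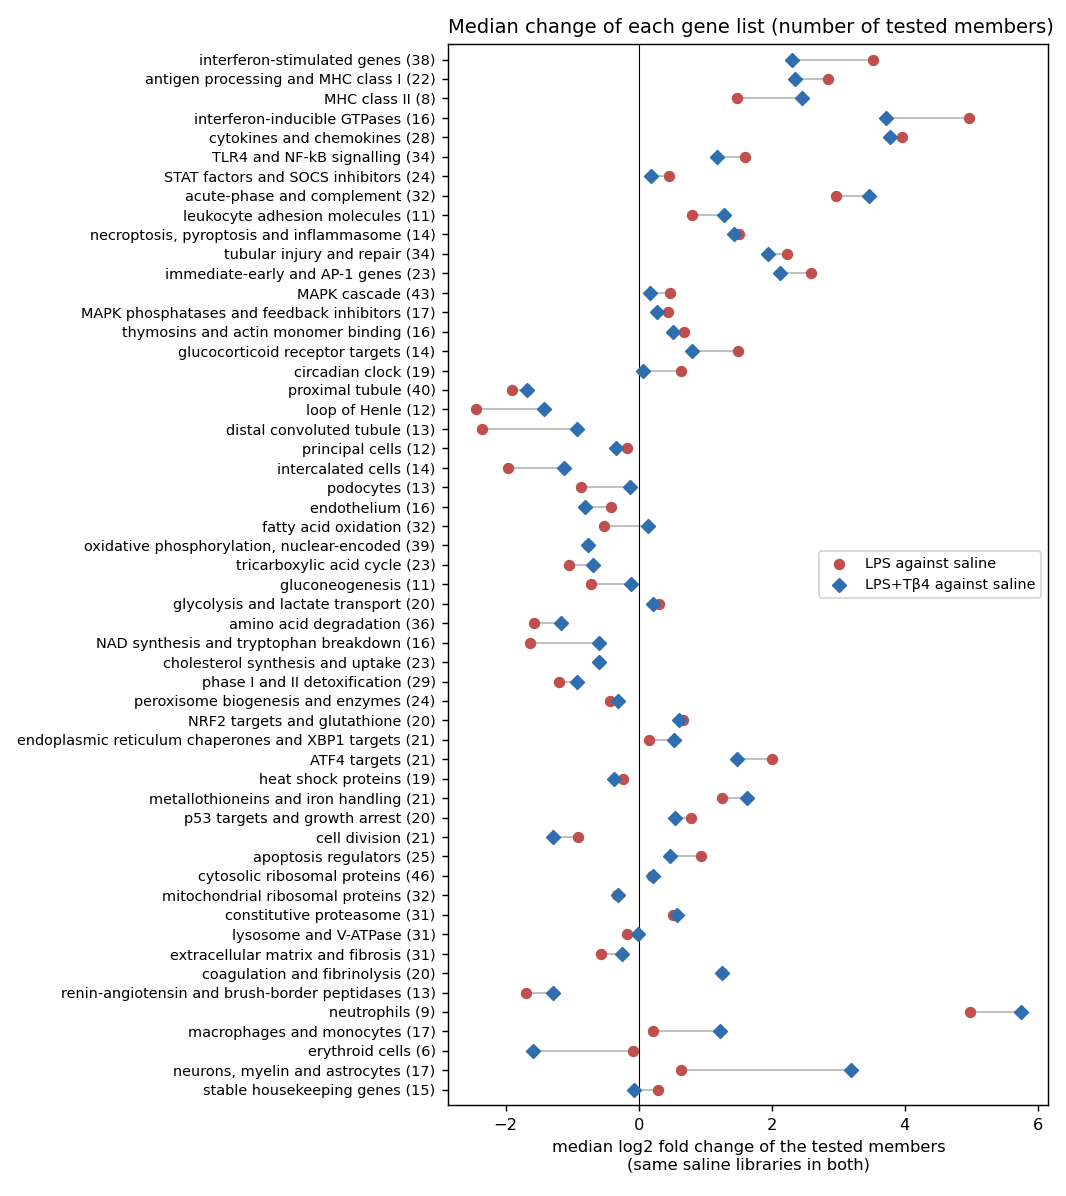
For each of 54 gene lists, the median log2 fold change of its tested members (horizontal axis) is shown for LPS against saline (red circles) and LPS+Tβ4 against saline (blue diamonds); both use the same saline libraries. The diamonds of the interferon lists lie left of the circles but above 2, those of MHC class II and the neural list lie right of them, and the diamonds of the proximal tubule, loop, distal convoluted tubule, intercalated cell and podocyte lists lie nearer 0 than the circles.

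The study's title names MAPK signalling, and the transcripts of this pathway were examined as levels of RNA, which say nothing of phosphorylation. Of 43 tested MAPK cascade genes, 27 (62.8%, against 46.7% of all genes) lay within 2-fold of saline, 13 were higher and 2 were lower, with a median of 0.17 in LPS+Tβ4 and 0.47 in LPS (0.11 and 0.27 within the poor and rich libraries). Without saline replicate 3 the number higher was 8. Between LPS+Tβ4 and LPS, 2 genes of the list were called, both lower in LPS+Tβ4.

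Terminal kinases of the ERK and JNK branches lay close to saline. Mapk3, which encodes ERK1, read 47.3, 53.8 and 53.2 CPM with saline, 72.1, 56 and 48 CPM with LPS, and 53.5, 51.3 and 69.4 CPM with LPS+Tβ4 (0.17, interval -0.23 to 0.58). The LPS+Tβ4 libraries overlapped saline, and the gene was not called. Mapk8, which encodes JNK1, read 26.1, 27.9 and 30.2 CPM with saline, 32, 37.9 and 46.6 CPM with LPS, and 27.9, 24.3 and 27.6 CPM with LPS+Tβ4. It was higher in LPS (0.47, adjusted p = 0.04) and within 2-fold of saline in LPS+Tβ4 (-0.08, interval -0.43 to 0.28).

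Mapk14, which encodes p38α, stood at 129, 130 and 137 CPM with saline, 78.3, 65.8 and 68.2 CPM with LPS, and 92.5, 113 and 88.6 CPM with LPS+Tβ4. All LPS+Tβ4 libraries lay below saline and above LPS. The difference from saline of -0.43 passed (adjusted p = 0.044), its interval of -0.73 to -0.13 lay within 2-fold, and the call was lost under 11 of 20 alternatives. Upstream members that rose were the small GTPases Rras (2.07) and Nras (1.07) and the kinases Map3k1 (1.99) and Map3k14 (1.00), while Map3k5, which encodes ASK1, fell by 0.91. Nras differed by -0.56 from LPS (adjusted p = 0.038). Mapk9, Araf and the adaptor Grb2 (0.31, adjusted p = 0.053) lay within 2-fold.

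Transcription factor genes that MAPK signals act on were mostly higher. Of 23 immediate-early and AP-1 genes, 20 (87.0%) were higher than saline, with a median of 2.13 in LPS+Tβ4 and 2.59 in LPS. Without saline replicate 1 or saline replicate 2 the number higher was 13. Jun stood at 26.6, 17.6 and 21.2 CPM with saline, 110, 93.1 and 109 CPM with LPS, and 210, 147 and 104 CPM with LPS+Tβ4 (2.82 ± 0.27, adjusted p = 0.00049). Junb (4.32), Maff (3.38), Myc (3.34) and Klf6 (2.77) rose. Fos differed by 2.29 without passing (adjusted p = 0.053), and Klf2 lay within 2-fold. Among 17 MAPK phosphatases and feedback inhibitors, 10 (58.8%) lay within 2-fold, 3 (17.6%) were higher and 1 (5.88%) was lower, against 46.7, 12.3 and 11.8% of all genes. The higher ones were Dusp8 (2.73), Dusp5 (2.31) and Dusp2 (1.72), and the lower one was Dusp9 (-3.12). The calls of Dusp5 and Dusp2 were lost under 3 alternatives each. Of the 17, 2 had a saline mean under 0.5 FPKM and passed the filter through the treated groups, and both were called higher. Of the other 15, 1 was higher. Without saline replicate 2 or 3, 6 of the 17 lay within 2-fold, and 5 did without LPS+Tβ4 replicate 3. Dusp3 differed by 0.42 from saline without passing (adjusted p = 0.062), although it was -0.63 from saline in LPS and 1.05 higher in LPS+Tβ4 than in LPS (adjusted p = 0.013).

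Transcripts of the peptide's own family were measured as well. Tmsb4x, the mouse gene for thymosin β4, stood at 227, 337 and 273 CPM with saline, 736, 1205 and 172 CPM with LPS, and 227, 190 and 796 CPM with LPS+Tβ4. In each treated group 1 library lay apart from its fellows, and the difference from saline was unresolved (0.53, interval -1.09 to 2.16, adjusted p = 0.63). In each group the urothelium-poor libraries had the lowest Tmsb4x, and the part of urothelial tissue in its level was not tested. Tmsb10, its paralog, rose from 52.1, 47.1 and 35.4 CPM to 214, 169 and 200 CPM (2.12 ± 0.41, adjusted p = 0.0076). Of 16 thymosin and actin monomer genes 9 lay within 2-fold, among them Dstn and Twf1, and Cfl1 (0.71), Actg1 (0.80), Pfn1 (0.73) and Cap1 (0.56) were called higher. The calls of Actg1, Pfn1 and Cap1 were lost under 2, 6 and 8 alternatives. The number higher was 2 without saline replicate 2 or LPS+Tβ4 replicate 1 and 3 without saline replicate 1 or 3 or LPS+Tβ4 replicate 3.

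Of 14 glucocorticoid receptor targets, 6 (42.9%) were higher and 1 (7.14%) lower, against 12.3 and 11.8% of all genes. Cebpd (4.88), Mt2 (4.08), Pdk4 (3.50) and Mt1 (3.08) were among the higher, and the receptor gene Nr3c1 was the lower one (-0.96). The number higher was 3 without saline replicate 3, the median was 0.41 and 1.29 within the poor and rich libraries, and the call of Pdk4 was lost under 1 alternative. The circadian clock list had 4 of 19 genes higher, 2 lower and 7 within 2-fold, which is not far from the shares of all genes (12.3, 11.8 and 46.7%). The number within 2-fold was 4 without saline replicate 1 and 3 without saline replicate 3 or LPS+Tβ4 replicate 1 or 2. Leaving out 1 library gave 2 to 4 higher and 2 to 4 lower genes. Hlf, an output factor of the clock, stood at 124, 103 and 103 CPM with saline, 5.92, 7.1 and 8.97 CPM with LPS, and 11.3, 14.8 and 17.3 CPM with LPS+Tβ4. It remained far below saline (-2.93) and was higher than in LPS by 0.98 (adjusted p = 0.032), with no overlap between groups. Tef, a related factor, was lower (-1.12), and the repressors Bhlhe40 (1.84) and Nfil3 (1.62, lost under 1 alternative) were higher. Cry1, a core clock repressor, read 4.46, 5.51 and 4.05 CPM with saline, 11.8, 14.7 and 22.6 CPM with LPS, and 5.59, 5.5 and 7.11 CPM with LPS+Tβ4. It lay within 2-fold of saline (0.38, interval -0.24 to 1.00) and was -1.43 from LPS.

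Proximal tubule genes stayed low. Of 40 listed and tested, 23 (57.5%, against 11.8% of all genes called lower) were lower than saline, 2 lay within 2-fold and no member was called higher by edgeR (2 at an unadjusted p under 0.05, 1 by DESeq2). The median was -1.68 in LPS+Tβ4 and -1.91 in LPS, and -1.45 and -2.19 within the poor and rich libraries. The number lower was 14 without saline replicate 1 and 15 without saline replicate 3 or LPS+Tβ4 replicate 1. Lrp2, the endocytic receptor megalin, stood at 2068, 1873 and 2497 CPM with saline, 129, 174 and 294 CPM with LPS, and 280, 401 and 227 CPM with LPS+Tβ4 (-2.83 ± 0.36, adjusted p = 0.0013). Its partner Cubn fell by 2.78 on the log2 scale. Both treated groups were far below saline for Lrp2 and overlapped each other.

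In 5 of the 40 genes LPS+Tβ4 was higher than LPS. Keg1, a glycine acyltransferase-like protein of the kidney, stood at 2177, 1491 and 2243 CPM with saline, 36.3, 51.8 and 32.7 CPM with LPS, and 204, 262 and 134 CPM with LPS+Tβ4. It was 2.31 higher in LPS+Tβ4 than in LPS (adjusted p = 0.013) and still -3.30 from saline. The proton-coupled organic cation exporter Slc47a1 was -2.15 from saline and 1.15 higher than in LPS (adjusted p = 0.034). Slc2a2, the basolateral glucose transporter, read 235, 173 and 241 CPM with saline, 15.4, 9.74 and 10.1 CPM with LPS, and 114, 169 and 119 CPM with LPS+Tβ4. Every LPS+Tβ4 library was below every saline library by a small margin and far above LPS. Its difference from saline was -0.69 (interval -1.23 to -0.15, adjusted p = 0.068), which passed under 4 of 20 alternatives, and it was 3.51 higher than in LPS (adjusted p = 0.0026). The glucose cotransporter Slc5a1 (0.11) and the sodium-proton exchanger Slc9a3 (-0.15) were the 2 members within 2-fold.

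Brush-border enzymes were low as well. Of 13 renin-angiotensin and brush-border peptidase genes, 6 were lower than saline, with a median of -1.28 in LPS+Tβ4 and -1.69 in LPS. Mep1b (-3.73), Anpep (-1.95), Ace (-1.50) and Mme (-1.49) were lower, and Dpp4 decreased by 1.00 on the log2 scale. The call of Ace was lost under 1 alternative, and Dpp4 was 1.35 higher than in LPS (adjusted p = 0.017). Lnpep lay within 2-fold.

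In the loop of Henle, 5 of 12 genes were lower than saline, against 9 in LPS, and the others were unresolved. The median was -1.42 in LPS+Tβ4 and -2.45 in LPS, and 3 were lower without LPS+Tβ4 replicate 1. Slc12a1, the furosemide-sensitive cotransporter NKCC2, stood at 645, 1044 and 513 CPM with saline, 46, 18.7 and 12.6 CPM with LPS, and 55.2, 88.6 and 27.5 CPM with LPS+Tβ4 (-3.68 ± 0.62, adjusted p = 0.004). Ppp1r1a (-2.39), the chloride channel subunit Bsnd (-2.21) and the tight junction protein Cldn10 (-1.81) were lower too, with the calls of Bsnd and Cldn10 lost under 8 and 1 alternatives. Umod, the uromodulin of the thick limb, was unresolved. It read 1790, 2609 and 1764 CPM with saline, 2804, 421 and 1443 CPM with LPS, and 1923, 2362 and 839 CPM with LPS+Tβ4, with overlap of all groups (-0.27, interval -1.68 to 1.15).

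Distal convoluted tubule genes were lower in 5 of 13 cases, against 9 in LPS, and 4 were higher in LPS+Tβ4 than in LPS. The median was -0.92 in LPS+Tβ4 and -2.36 in LPS. The sodium-calcium exchanger Slc8a1 was -3.17 from saline and 1.57 higher than in LPS (adjusted p = 0.036). Klhl3, which directs WNK kinases to degradation, was -1.72 from saline and 1.69 higher than in LPS (adjusted p = 0.014). Pvalb (-3.19), Wnk1 (-1.42) and Wnk4 (-0.75, lost under 3 alternatives) were the other lower members.

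Principal cell genes were called lower about as often as all genes, 1 of 12 (8.33%) against 11.8%. The 1 called was Hsd11b2, the enzyme that keeps cortisol-type steroids off the mineralocorticoid receptor. It stood at 143, 87.8 and 99.9 CPM with saline, 13.3, 13.2 and 9.3 CPM with LPS, and 59.6, 79.2 and 44.6 CPM with LPS+Tβ4. It lay 2.36 above LPS (adjusted p = 0.0093) and -0.85 from saline (adjusted p = 0.047), the latter lost under 11 of 20 alternatives. The sodium channel subunits Scnn1b (0.24) and Scnn1g (-0.35) lay within 2-fold.

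Genes of intercalated cells, which handle acid and base, stayed low. Of 14 genes 9 (64.3%) were lower than saline, against 12 in LPS, with a median of -1.12 in LPS+Tβ4 and -1.97 in LPS (-1.27 and -1.18 within the poor and rich libraries). Slc4a1, the anion exchanger AE1, stood at 37.7, 41.3 and 42.1 CPM with saline, 2.54, 1.53 and 0.857 CPM with LPS, and 4.95, 4.48 and 3.12 CPM with LPS+Tβ4 (-3.27). Erythroid cells also make Slc4a1. The proton pump subunit Atp6v1b1 read 92.7, 79.8 and 109 CPM with saline, 8.62, 4.39 and 5.16 CPM with LPS, and 20.5, 39 and 23.4 CPM with LPS+Tβ4. The 3 groups of Atp6v1b1 did not overlap, at -1.76 from saline and 2.19 above LPS (adjusted p = 0.015). The ammonia transporter Rhbg was -1.52 from saline and 1.50 above LPS (adjusted p = 0.026). The pump subunit Atp6v0a4, -1.20 from saline in LPS, lay within 2-fold in LPS+Tβ4 (0.17).

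Podocyte genes were called about as often as other genes. Of 13 genes 6 lay within 2-fold (46.7% of all genes did) and 2 were lower (11.8% of all genes were), with a median of -0.13 in LPS+Tβ4 and -0.87 in LPS. Podxl, the surface sialomucin of podocytes and endothelium, stood at 293, 220 and 229 CPM with saline, 75.6, 139 and 117 CPM with LPS, and 220, 246 and 178 CPM with LPS+Tβ4. Its saline and LPS+Tβ4 ranges overlapped (-0.20, interval -0.74 to 0.34), while LPS was -1.16 from saline. Kirrel and Actn4 also lay within 2-fold. The slit diaphragm gene Nphs1 read 44.8, 24.9 and 33.5 CPM with saline, 13.2, 16.9 and 15.8 CPM with LPS, and 20.7, 20.7 and 17.1 CPM with LPS+Tβ4 (-0.82, adjusted p = 0.028, lost under 8 alternatives), and the cytoskeletal gene Clic5 was lower at -1.12 (lost under 4 alternatives).

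Of 16 genes of the endothelium and of growth factors that act on it, 6 (37.5%) were lower and 1 (6.25%) was higher, against 11.8 and 12.3% of all genes. The median was -0.80 in LPS+Tβ4 and -0.41 in LPS. The endothelial nitric oxide synthase Nos3 was the higher one, at 4.93, 7.17 and 7.03 CPM with saline and 23.9, 23.3 and 24.3 CPM with LPS+Tβ4 (adjusted p = 0.00078). The glomerular endothelial gene Ehd3 (-2.08) and the angiopoietin receptor Tek (-1.67) were lower. So were the growth factors Angpt1 (-1.35), the ligand of Tek, and Vegfa (-0.84), which act on endothelium and are not markers of it. The calls of Tek and Angpt1 were lost under 5 and 8 alternatives. Egfl7 and Esam lay within 2-fold. The number lower was 2 without saline replicate 1 or without LPS+Tβ4 replicate 1 or 2, and 3 without saline replicate 2 or 3, and the median was -0.99 within the urothelium-poor and -0.18 within the rich libraries.

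Amino acid breakdown stayed low. Of 36 tested genes 25 (69.4%) were lower than saline and 1 lay within 2-fold, with a median of -1.16 in LPS+Tβ4 and -1.57 in LPS (-1.05 and -1.55 within the poor and rich libraries). The number lower was 16 without saline replicate 3 or LPS+Tβ4 replicate 1. Aldh4a1, a proline-degrading enzyme of mitochondria, stood at 597, 480 and 602 CPM with saline, 101, 75 and 101 CPM with LPS, and 160, 217 and 135 CPM with LPS+Tβ4. The 3 groups did not overlap, at -1.71 ± 0.22 from saline (adjusted p = 0.0013) and 0.89 above LPS (adjusted p = 0.046). Sardh (-2.00), Dbt (-1.29), Prodh (-1.15) and Acadsb (-0.90) were lower too. Hibch, of valine breakdown, was called at -0.63 with an interval within 2-fold (lost under 1 alternative) and was 0.88 above LPS (adjusted p = 0.013).

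Tryptophan breakdown and NAD synthesis were split. Of 16 genes 7 (43.8%) were lower, 2 (12.5%) were higher and 7 (43.8%) lay within 2-fold, against 11.8, 12.3 and 46.7% of all genes. The median was -0.59 in LPS+Tβ4 and -1.63 in LPS. The number within 2-fold was 4 without saline replicate 2 and 3 without LPS+Tβ4 replicate 2. Acmsd, which diverts tryptophan away from NAD, stood at 292, 147 and 255 CPM with saline, 0.507, 5.39 and 4.81 CPM with LPS, and 8.05, 24.1 and 11.3 CPM with LPS+Tβ4 (-4.00). The kynurenine pathway enzymes Haao (-2.19), Afmid (-1.90) and Kmo (-1.83) and the mitochondrial deacetylase Sirt3 (-1.24) were lower. Sirt3 was 0.93 above LPS. Nampt, the salvage enzyme of NAD synthesis, lay within 2-fold (0.40). Qprt, the enzyme at the entry from tryptophan to NAD, read 71.6, 55.9 and 75.3 CPM with saline, 14.2, 14.4 and 19.6 CPM with LPS, and 58.9, 84 and 39.5 CPM with LPS+Tβ4, within 2-fold of saline (-0.15, interval -0.77 to 0.46) and 1.92 above LPS.

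Mitochondrial energy genes stayed moderately low. Of 23 tricarboxylic acid cycle genes 16 (69.6%) were lower than saline and 5 lay within 2-fold, with a median of -0.68 in LPS+Tβ4 and -1.05 in LPS. Idh2 (-1.38), Mdh1 (-1.24), Idh3a (-1.14), Sucla2 (-0.99) and Ogdh (-0.98) were the most clearly lower, and Pdhb, Cs and Mdh2 were called lower with intervals within 2-fold, each lost under 8 or 9 alternatives. Of 39 nuclear-encoded oxidative phosphorylation genes 17 (43.6%) were lower and 10 lay within 2-fold, with the same median of -0.76 in LPS+Tβ4 and LPS. Ndufb5 (-1.20), Ndufs1 (-1.12), Atp5o (-1.07), Sdhc (-1.04) and Ndufs8 (-0.71) were lower, and none of the 39 had its whole interval past 2-fold. Leaving out saline replicate 1 or 3 or LPS+Tβ4 replicate 1 or 3 gave 8 to 10 lower genes in either list, and 10 cycle genes were lower without saline replicate 2. Leaving out LPS replicate 1 gave 26 lower oxidative phosphorylation genes. The 10 oxidative phosphorylation genes within 2-fold became 4 without saline replicate 2 or LPS+Tβ4 replicate 1 and 3 without LPS+Tβ4 replicate 2. The 5 cycle genes within 2-fold became 9 without LPS replicate 1 and 3 without LPS+Tβ4 replicate 2. Medians within the poor and rich libraries were -0.80 and -0.96 for oxidative phosphorylation, and -0.65 and -1.0 for the cycle.

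Fatty acid oxidation did not move as a block. Of 32 genes 7 were higher, 8 were lower and 12 lay within 2-fold, and the median was 0.14 in LPS+Tβ4 and -0.52 in LPS, where 5 were higher and 12 lower. Its sign within the poor and rich libraries differed, at 0.41 and -0.26, and leave-outs gave 3 to 8 higher and 3 to 9 lower genes. The number higher was 3 without saline replicate 3 and 4 without LPS+Tβ4 replicate 1 or 2, and the number lower was 3 without saline replicate 3 or LPS+Tβ4 replicate 1 or 3, 4 without saline replicate 2 and 5 without saline replicate 1. Acot1, a cytosolic thioesterase that splits acyl-CoA, stood at 49.8, 53.6 and 47.4 CPM with saline, 102, 117 and 165 CPM with LPS, and 227, 211 and 118 CPM with LPS+Tβ4. Every LPS+Tβ4 library was above every saline library (1.88 ± 0.27, adjusted p = 0.0022), and the LPS and LPS+Tβ4 ranges overlapped. Its mitochondrial relative Acot2 was also higher (1.55).

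The medium-chain dehydrogenase Acadm was among the lower genes of that list, at 999, 1188 and 844 CPM with saline, 272, 245 and 408 CPM with LPS, and 385, 422 and 280 CPM with LPS+Tβ4 (-1.48), with the thiolase Acaa2 (-1.39). The isomerase Eci1 was -0.60 from saline in LPS and within 2-fold in LPS+Tβ4 (0.12, interval -0.15 to 0.38; 0.71 above LPS, adjusted p = 0.018). The reductase Decr1 was -0.59 from saline in LPS and within 2-fold in LPS+Tβ4 (0.26, interval -0.10 to 0.62; 0.85 above LPS, adjusted p = 0.024). Hadhb lay within 2-fold as well.

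Genes of sugar metabolism were called about as often as other genes. Of 20 glycolysis genes 9 lay within 2-fold, 2 were higher and 2 were lower, against 46.7, 12.3 and 11.8% of all genes. The number within 2-fold was 4 without saline or LPS+Tβ4 replicate 2 and 5 without saline or LPS+Tβ4 replicate 3. The list held Ldha at -0.01 (interval -0.31 to 0.29), the lactate transporter Slc16a1 higher (1.72) and the muscle-type kinase Pfkm lower (-0.89, lost under 8 alternatives). Of 11 gluconeogenesis genes 1 was lower, the glucose-6-phosphate transporter Slc37a4 (-0.86, lost under 5 alternatives), 2 lay within 2-fold and 8 were unresolved, against 5 lower genes in LPS. Fbp2 was -1.15 from saline in LPS and 1.72 above LPS in LPS+Tβ4 (adjusted p = 0.015), where its difference from saline of 0.57 did not pass (adjusted p = 0.13).

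Cholesterol synthesis stayed low in part. Of 23 genes 8 (34.8%) were lower than saline and 9 lay within 2-fold. Idi1, an early enzyme of isoprenoid synthesis, stood at 170, 159 and 127 CPM with saline, 13.8, 11.9 and 8.88 CPM with LPS, and 15.6, 14.6 and 17.3 CPM with LPS+Tβ4, with both treated groups far below saline and little apart (-3.26 ± 0.20, adjusted p = 0.00013). Cyp51 (-2.93), Hmgcs1 (-2.28), Nsdhl (-1.43) and Sc5d (-0.85) were lower, whereas the regulator Srebf2 and the enzymes Fdft1 and Fdps lay within 2-fold.

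Of 29 phase I and II detoxification genes 10 were lower and 1 was higher, with a median of -0.92 in LPS+Tβ4 and -1.20 in LPS (-0.69 and -1.41 within the poor and rich libraries). Cyp2d26 (-4.04), Fmo5 (-2.16), Fmo1 (-1.82) and Gstt1 (-1.33) were lower, and Fmo5 was 0.80 above LPS (adjusted p = 0.022). The higher gene was Cyp27b1, the enzyme of the proximal tubule that makes active vitamin D. It stood at 6.31, 4.24 and 3.75 CPM with saline, 9.67, 11.8 and 5.8 CPM with LPS, and 44.1, 46.6 and 76.5 CPM with LPS+Tβ4. All LPS+Tβ4 libraries were far above both other groups, at 3.55 ± 0.36 from saline (adjusted p = 0.00056) and 2.62 from LPS (adjusted p = 0.013), and LPS overlapped saline. The detoxification count was 5 or 6 without saline replicate 1 or 3 or LPS+Tβ4 replicate 1 or 3. In the peroxisome list 14 of 24 genes (58.3%) lay within 2-fold and 6 were lower, including Hao2 (-4.05), Pecr (-2.94), Amacr (-2.89) and Scp2 (-1.14).

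Stress genes stayed high in part. Of 20 NRF2 target and glutathione genes 8 were higher and 1 lower, the higher ones including Hmox1, at 37.3, 36 and 38.1 CPM with saline, 298, 212 and 713 CPM with LPS, and 518, 227 and 199 CPM with LPS+Tβ4 (3.08 ± 0.53, adjusted p = 0.0044). Srxn1 (1.99), Pgd (1.49), G6pdx (1.34) and the factor Nfe2l2 itself (0.73) rose, and Gpx4, Tkt and Keap1 lay within 2-fold. Without any 1 saline library or LPS+Tβ4 replicate 1 the number higher was 5, and the median was 0.72 and 0.11 within the poor and rich libraries. The number within 2-fold was 5, and 3 without saline replicate 2 or 3.

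Of 21 ATF4 targets 13 (61.9%) were higher and 2 lower, with a median of 1.48 in LPS+Tβ4 and 2.01 in LPS. Of the 21, 4 had a saline mean under 0.5 FPKM and passed the filter through the treated groups, and 3 of these were called higher. Of the other 17, 10 were higher. The stress hormone Gdf15 (4.93), the glutathione-degrading enzyme Chac1 (3.75) and the serine synthesis enzyme Psat1 (1.61) rose, Psat1 to 0.90 above LPS (adjusted p = 0.017). The mitochondrial one-carbon enzyme Shmt2 stayed lower (-1.54), at 1.02 above LPS (adjusted p = 0.036). Of 21 endoplasmic reticulum chaperones and XBP1 targets 8 (38.1%) were higher, against 12.3% of all genes. Within 2-fold lay 10 (47.6%), which is near the 46.7% of all genes. Xbp1 (1.75), Ddit3 (1.81), Manf (1.30) and Creld2 (1.11) were higher, the calls of Xbp1, Manf and Creld2 lost under 4, 2 and 3 alternatives. The number higher was 1 without LPS+Tβ4 replicate 1, 2 without saline replicate 2 or 3 and 5 without LPS+Tβ4 replicate 2.

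Of 21 metallothionein and iron genes 13 (61.9%) were higher, including Mt3 (3.81) and Hfe (1.63), with Slc11a2 and Ftl1 within 2-fold. Of the 21, 3 had a saline mean under 0.5 FPKM and passed the filter through the treated groups, and all 3 were called higher. Of the other 18, 10 were higher. The part of brain transcripts, described below, in the level of Mt3 was not tested. Of 19 heat shock protein genes 7 (36.8%) were lower and 3 (15.8%) higher, against 11.8 and 12.3% of all genes. The mitochondrial chaperonins Hspe1 (-1.42) and Hspd1 (-1.12) and the cochaperones Chordc1 (-1.06) and Dnaja1 (-1.01) were lower, and the small heat shock protein Hspb8 was higher (2.86). The number lower was 4 without saline replicate 2 or 3 or LPS+Tβ4 replicate 1 or 2.

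Growth arrest genes rose in part, and cell division genes were lower or mostly unresolved. Of 20 p53 target and growth arrest genes 8 (40.0%) were higher, 1 (5.0%) was lower and 6 (30.0%) lay within 2-fold, against 12.3, 11.8 and 46.7% of all genes. Gadd45a (2.46), Cdkn1a (2.40), Gadd45b (1.97), Gadd45g (1.62) and Bbc3 (1.61) were higher, and Bax, Mdm2 and Ccng1 lay within 2-fold. Those within 2-fold numbered 3 without saline replicate 1, and 2 without LPS+Tβ4 replicate 3. Of 21 cell division genes 5 (23.8%, against 11.8% of all genes) were lower, among them Mki67 (-1.71), Rrm2 (-1.64), Ccnd1 (-1.63) and Kif20a (-1.28), and 13 were unresolved. These calls were lost under 6, 4, 7 and 6 alternatives. That count was 0 without saline replicate 1 or without LPS+Tβ4 replicate 2 or 3, 1 without LPS+Tβ4 replicate 1, 2 without saline replicate 2 and 10 without LPS replicate 1. Of 25 apoptosis regulators 11 (44.0%) were higher and 9 (36.0%) lay within 2-fold, against 12.3 and 46.7% of all genes. The higher ones included the survival gene Bcl2a1b (2.41, and 1.47 above LPS) and the pore-forming Bak1 (1.44). Of the 25, 2 had a saline mean under 0.5 FPKM and passed the filter through the treated groups, and both were called higher. Of the other 23, 9 were higher.

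Genes of protein synthesis lay close to saline. Of 46 cytosolic ribosomal protein genes, 43 (93.5%, against 46.7% of all genes) lay within 2-fold of saline. The median was 0.21 in LPS+Tβ4 (0.01 and 0.24 within the poor and rich libraries) and 0.2 in LPS, so this list differed little from saline in LPS too. Rps3 stood at 346, 296 and 304 CPM with saline, 302, 337 and 297 CPM with LPS, and 340, 335 and 332 CPM with LPS+Tβ4, with all groups overlapping (0.09, interval -0.20 to 0.37). Rpl13 was the 1 called member (1.55, adjusted p = 0.049, lost under 11 alternatives). Of 32 mitochondrial ribosomal protein genes 27 (84.4%) lay within 2-fold, 6 were lower and 1, Mrps18b, was higher (1.15), against 14 lower in LPS. The number lower was 1 without saline replicate 1, 2 without saline replicate 3 or any LPS+Tβ4 library, and 3 without saline replicate 2 or LPS replicate 2.

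Of 31 constitutive proteasome genes 19 (61.3%) were higher than saline, 21 lay within 2-fold and none had its whole interval past 2-fold, with a median of 0.58 in LPS+Tβ4 and 0.51 in LPS. Psmb4 stood at 93.6, 81.3 and 77.6 CPM with saline, 172, 196 and 155 CPM with LPS, and 237, 211 and 168 CPM with LPS+Tβ4 (1.29), and Psma6 (0.76) and Psma1 (0.74) rose less. The number higher was 11 without saline replicate 2 or LPS+Tβ4 replicate 1 and 12 without LPS+Tβ4 replicate 2. The number within 2-fold was 11 without saline replicate 3 and 12 without LPS+Tβ4 replicate 3. Of 31 lysosome and V-ATPase genes 20 (64.5%) lay within 2-fold and 5 (16.1%, against 12.3% of all genes) were higher. The number higher was 2 without saline replicate 2 or LPS+Tβ4 replicate 1 or 2 and 3 without saline replicate 1 or 3. The macrophage protease Ctss was higher (1.89), and the acid lipase Lipa was lower (-1.51) and 1.34 above LPS.

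Matrix genes were mixed. Of 31 extracellular matrix genes 8 (25.8%) were higher and 5 (16.1%) lower, against 12.3 and 11.8% of all genes. The proteases Mmp7 (5.96) and Mmp14 (1.36), the inhibitor Timp1 (4.45) and Tgfb1 (1.27) were higher and Col6a3 (-1.88) was lower. The median was -0.34 within the urothelium-poor and 0.25 within the rich libraries, and the number lower was 1 without LPS+Tβ4 replicate 1 and 2 or 3 without any other saline or LPS+Tβ4 library. The 6 within 2-fold became 3 without saline replicate 1 or 2. Of 15 genes taken as stable housekeeping genes, 11 lay within 2-fold (7 without saline replicate 1), with a median of -0.07, and the called ones were B2m, Hprt (0.49) and Sdha (-0.89), Hprt and Sdha with calls lost under 6 and 3 alternatives.

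**Figure D4:**
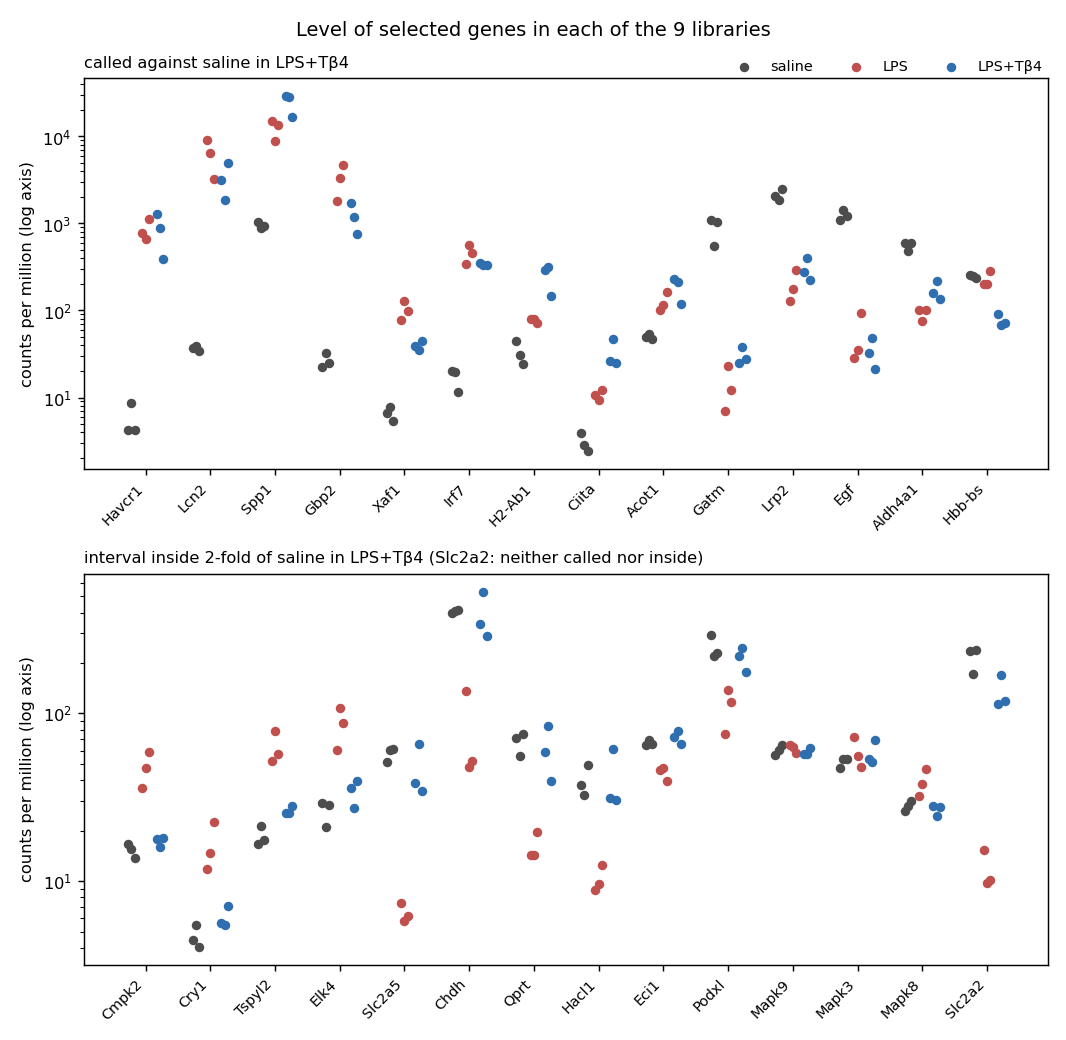
Points are the CPM of single genes in each of the 9 libraries (log axis), saline in black, LPS in red and LPS+Tβ4 in blue. In the upper panel the saline and LPS+Tβ4 points do not overlap for any gene shown. In the lower panel the LPS+Tβ4 points lie at or near the saline points while LPS lies apart for most genes, the MAPK genes excepted. Of these, Cmpk2, Cry1, Tspyl2, Elk4, Slc2a5, Chdh, Qprt and Hacl1 were chosen for a large LPS change and an LPS+Tβ4 interval within 2-fold. Their pattern therefore follows from the choice, and Slc2a2 was unresolved.

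Individual genes that LPS had raised and that lay within 2-fold of saline in LPS+Tβ4 were taken by the size of their LPS rise, so their distance from LPS is a description. Besides Cmpk2 and Cry1 they were Tspyl2, Elk4, Zfp52, Tpst1, Spint1, Parp4, Uchl3 and Zfp956. Tspyl2, a nucleosome assembly protein of growth arrest, stood at 16.6, 21.2 and 17.5 CPM with saline, 52.3, 78.1 and 57 CPM with LPS, and 25.5, 25.5 and 28.2 CPM with LPS+Tβ4. Its LPS+Tβ4 libraries were all above saline, at 0.52 (interval 0.12 to 0.92, adjusted p = 0.065). Tpst1, a protein tyrosine sulfotransferase, read 6.83, 5.64 and 4.7 CPM with saline, 13.8, 20.3 and 21 CPM with LPS, and 4.96, 4.23 and 8.19 CPM with LPS+Tβ4, with saline and LPS+Tβ4 overlapping (0.02, interval -0.66 to 0.70). Elk4, a partner of serum response factor and a MAPK substrate, was 1.70 above saline in LPS and 0.38 in LPS+Tβ4, and Spint1, an inhibitor of hepatocyte growth factor activator, was 1.66 and 0.55.

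The genes that LPS had lowered most and that lay within 2-fold of saline in LPS+Tβ4 included transporters and enzymes of the proximal tubule. They were taken by the size of their LPS fall, so a gap between LPS+Tβ4 and LPS follows from the choice and is a description. Slc2a5, the fructose transporter, stood at 51, 60.3 and 61.8 CPM with saline, 7.36, 5.81 and 6.21 CPM with LPS, and 38.6, 65.6 and 34.3 CPM with LPS+Tβ4. Its difference from saline was -0.32 (interval -0.87 to 0.23), and it was 2.84 above LPS. Chdh, choline dehydrogenase, read 395, 407 and 415 CPM with saline, 137, 47.8 and 51.7 CPM with LPS, and 339, 530 and 288 CPM with LPS+Tβ4. Its difference from saline was -0.07, with an upper limit of 0.85 and a lower limit only just inside the bound of -1. In both genes LPS+Tβ4 replicate 2 was above saline and replicates 1 and 3 below it.

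Hacl1, a peroxisomal lyase of branched fatty acids, stood at 37.7, 32.8 and 49.1 CPM with saline, 8.9, 9.67 and 12.6 CPM with LPS, and 31.1, 61.1 and 30.3 CPM with LPS+Tβ4 (0.03, interval -0.64 to 0.71). It lay 1.98 above LPS. Add3, of the membrane skeleton, was -1.99 from saline in LPS and -0.55 in LPS+Tβ4, called with an interval within 2-fold (adjusted p = 0.038, lost under 9 alternatives). The remaining members were Qprt, described with NAD synthesis, and Sfrp2, Cyb5d2, Snx32, Tspan2 and Sema5a.

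Red cell transcripts other than Slc4a1, and brain transcripts, set LPS+Tβ4 apart from both other groups. All 6 tested erythroid genes were lower in LPS+Tβ4 than in saline, with a median of -1.58, against -0.08 in LPS, and 5 were lower than in LPS. The remaining member, Slc4a1, is also the intercalated cell gene described above, and its level was lowest in LPS. Hbb-bs, an adult beta-globin, stood at 255, 251 and 235 CPM with saline, 203, 204 and 282 CPM with LPS, and 91.1, 68 and 71.4 CPM with LPS+Tβ4. All LPS+Tβ4 libraries lay far below the 6 others, at -1.68 ± 0.18 from saline (adjusted p = 0.00064) and -1.58 from LPS (adjusted p = 0.0084). Hbb-bt (-1.79), Hba-a2 (-1.48) and Hba-a1 (-1.41) were lower too, and near-identical globin genes may share reads.

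Of 17 tested neuron, myelin and astrocyte genes (18 listed), 13 (76.5%) were higher in LPS+Tβ4 than in saline, with a median of 3.19, against 0.64 in LPS, and 10 were higher than in LPS. Of the 17, 9 had a saline mean under 0.5 FPKM and passed the filter through the treated groups; of the other 8, 5 were higher. Mobp, a myelin protein of the central nervous system, stood at 1.48, 0.938 and 1.41 CPM with saline, 3.33, 1.3 and 1.31 CPM with LPS, and 51.4, 62.3 and 57 CPM with LPS+Tβ4 (5.48 ± 0.43, adjusted p = 0.00025). Gfap, the intermediate filament of astrocytes, read 1.14, 1.01 and 1.72 CPM with saline, 3.57, 1.29 and 0.82 CPM with LPS, and 23.8, 26 and 24.9 CPM with LPS+Tβ4 (4.27 ± 0.55, adjusted p = 0.0014). Both genes were at much the same level in all 3 LPS+Tβ4 libraries and at low levels in the 6 others.

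Vsnl1 (4.12), Syt1 (3.03) and Camk2a (2.97), all of neurons, and Chgb, at 0, 0 and 0.0924 CPM with saline and 10.5, 14.9 and 10 CPM with LPS+Tβ4, rose with them. The summed level of the list was 93 to 287 CPM with saline, 45.7 to 720 CPM with LPS and 658 to 1070 CPM with LPS+Tβ4, a sum that includes Aqp4, which collecting duct cells also express. The median was 3.07 and 3.01 within the urothelium-poor and rich libraries. The labels name kidney as the only tissue. The part of brain RNA in the other results was not tested.

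**Figure D5:**
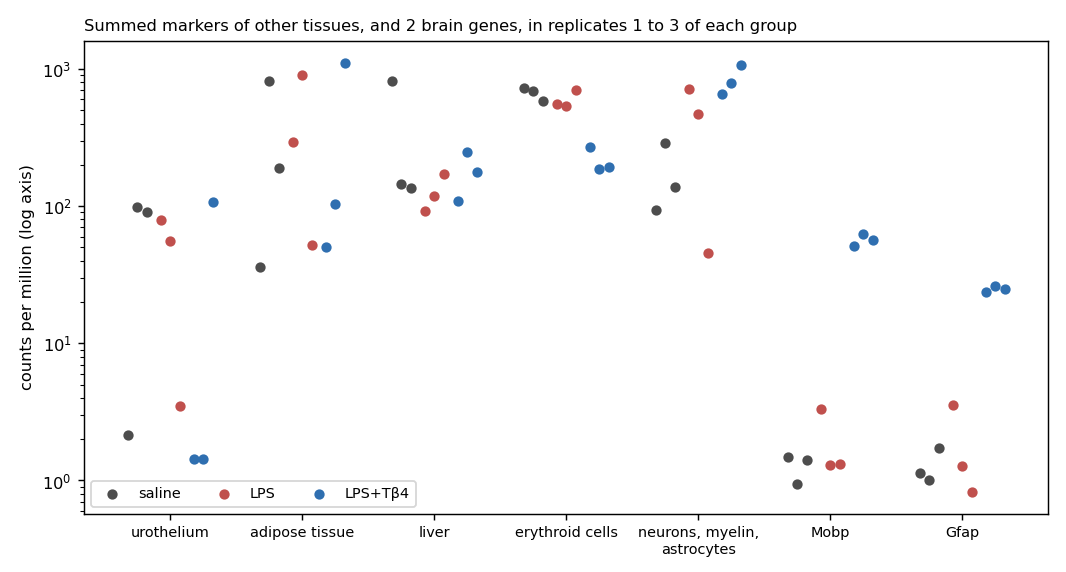
Summed CPM of marker lists and the CPM of Mobp and Gfap (vertical log axis) are shown for replicates 1 to 3 of each group, saline in black, LPS in red and LPS+Tβ4 in blue. Urothelial and adipose sums split the libraries across groups, while erythroid sums are lower, and Mobp and Gfap higher, in all 3 LPS+Tβ4 libraries than in the 6 others.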

How the data were processed

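The deposited table holds a raw count and an FPKM value per gene and library, both made by the authors. Per the labels' protocols, poly(A) RNA was sequenced as strand-marked 2 × 150 base pairs; the submitters' processing notes name cutadapt 1.9, HISAT2 2.2.1, StringTie 2.1.6, DESeq2, edgeR and GRCm38 with no role. How reads were counted, with which strand setting and gene models, is not given in the sources used here, so overlapping genes are uncertain. Only gene symbols of the table were used.

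From the counts, edgeR 4.0.16 (R 4.3.3) fitted all 9 libraries together (TMM, quasi-likelihood, no covariate), which shares the spread over the 3 groups. Genes with a mean FPKM of 0.5 or more were kept and p-values adjusted over them. SE is the log2 difference over the square root of F. The steps were tested on simulated data. Depth was 53 to 62 M counts a library.

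Gene lists and members were chosen with earlier results of these data known. Named genes were the 15 largest rises and 15 largest falls (non-overlapping groups, mean FPKM of 1 or more), up to 5 members of each list with the smallest adjusted p and up to 3 with the narrowest interval inside 2-fold, the 10 largest LPS rises and 10 largest LPS falls inside 2-fold in LPS+Tβ4, and 17 fixed genes such as Tmsb4x, Havcr1 and Lcn2; some were left out for length and a few are not reported here. Lists are described by counts and medians beside those of all genes. Alternatives covered the filter, the scaling, robust estimation, 6 libraries fitted alone, a replicate block, a urothelial term, each library left out, limma 3.58.1 on log2(FPKM + 1) and DESeq2 1.42.0; medians within urothelium-poor and rich libraries were added after seeing the data. Plots used matplotlib 3.10.9 (Python 3.11.15).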

Additional observations from a re-analysis of the deposited data

How the results depend on the processing

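The genes higher, lower and within 2-fold of saline numbered 1852, 1765 and 7017, and a stricter filter (mean FPKM of 5 or more, 7029 genes) gave 1162, 1106 and 4067, since fewer genes were tested. Leaving out 1 library gave 1168 to 2457 higher, 944 to 2087 lower and 5871 to 7615 within 2-fold. The count of higher genes moved by over 1.5 times without saline replicate 2 (1220), saline replicate 3 (1210) or LPS+Tβ4 replicate 1 (1168). The count of lower genes did so without saline replicates 1 (944), 2 (1166) or 3 (973) or LPS+Tβ4 replicates 1 (951) or 3 (1079). The cause was not tested. Limma on log2(FPKM + 1) gave 2465 higher and 1327 lower genes, a share of 65.0% higher among calls against 51.2%, with the median of all genes at 0.14; without a filter the share was 60.6%.

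Deviations of same-numbered saline and LPS+Tβ4 libraries from their group means correlated at r = 0.24, -0.34 and 0.20, against -0.44 to 0.38 for differently numbered ones. With 3 libraries a group, these values cannot settle whether the numbers pair the libraries. The replicate block gave 1337 higher and 1137 lower genes.

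Of 423 named genes, 288 were called. Of these, 226 stayed past the threshold under all 20 alternatives, 62 missed it under 1 or more and none changed sign; 46 of 135 uncalled ones passed under 1 or more. DESeq2 gave no adjusted p for some low genes, which have no value there. Of 48 list counts of 5 or more genes higher or lower, 18 stayed within 1.5 times under every alternative, among them both interferon lists and both MHC lists, and 30 did not. Of 25 list counts of 5 or more genes within 2-fold, 11 did, among them the MAPK cascade (18 to 28), cytosolic ribosome (39 to 43) and lysosome (16 to 22), and 14 did not. The block gave 14 lower proximal tubule genes (23), 11 lower oxidative phosphorylation genes (17), 10 lower cycle genes (16), 12 higher proteasome genes (19), 6 lower detoxification genes (10) and 4 lower heat shock genes (7), the counts without the block in parentheses. A urothelial term gave 26 lower oxidative phosphorylation genes and 12 lower mitochondrial ribosomal genes (6). The stricter filter gave 14 higher TLR4 and NF-kB genes (23), 12 higher cytokines (20), 4 higher neutrophil (9), 2 higher macrophage (9) and 3 higher neural markers (13). Lower mitochondrial ribosomal genes numbered 1 to 7 when 1 library was left out, higher thymosin and actin genes 2 to 6 (5), higher adhesion molecules 3 to 6 (5), higher lysosome genes 2 to 7 (5), higher glucocorticoid targets 3 to 6 (6) and lower loop of Henle genes 3 to 6 (5). With 3 libraries a group and intervals often past 2-fold, 4891 genes were unresolved.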
